A study of Homo sapiens with 6 samples.

Results

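IL24 and its near relatives were followed in AC16, an immortal human line that joins ventricular heart muscle cells and virus-transformed fibroblasts in 1 hybrid. The members are the IL-20 subfamily cytokine genes IL24, IL19 and IL20 and the receptor chain genes IL20RA, IL20RB, IL22RA1 and IL10RB, 7 of the 58299 genes in the count table. They were matched by gene symbol, and were chosen by the measured rise of IL24 counts from control to treated libraries, with its subfamily and receptor genes added. The members' differences between the groups are therefore given as a description, without a test. Polyadenylated RNA was sequenced in 6 libraries. The 3 control libraries came from cells in 0.1% DMSO for 72 h, and the 3 treated libraries from cells given 100 nM CDDO-Me for 24 h and then 100 nM doxorubicin for 48 h, 72 h in total. CDDO-Me is a triterpenoid that releases the transcription factor NRF2 from KEAP1, and doxorubicin is an anticancer drug that holds topoisomerase II in breaks of the DNA. Whether CDDO-Me was still present during the doxorubicin step is not stated, nor whether treated cells had DMSO. Cells given a single drug were not analysed here, so no difference can be assigned to either drug. In this hybrid line 7 of 10 cardiomyocyte marker genes had 0 counts in all controls, among them MYH6, MYH7, TNNI3 and NKX2-5. GATA4 was present at 17.9 ± 2.12 CPM in controls and 14.3 ± 2.19 CPM in treated cells (SD, n = 3). The sum of 7 fibroblast markers was 24191.7 to 26702.3 CPM in controls and 13071.5 to 13899 CPM in treated cells. Of these markers 6 were lower in treated cells, while VIM overlapped between the groups (2201 ± 65.8 and 2156 ± 72.6 CPM). The replicates are numbered, but the labels do not tie them to separate cultures, so SDs and p-values cover only how far these libraries differ, possibly for technical reasons.

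Cytokines of the IL-20 subfamily are secreted relatives of interleukin-10. IL-19, IL-20 and IL-24 bind a receptor made of the IL20RA and IL20RB chains, and IL-20 and IL-24 also bind the pair of IL22RA1 and IL20RB. IL10RB is the partner chain of IL22RA1 in the interleukin-22 receptor and of IL20RA in the interleukin-26 receptor. These receptors signal through JAK kinases and mainly STAT3. Activated immune cells and keratinocytes are known sources of IL-24, which was first described as a melanoma differentiation gene and has been studied for its effect on tumour cell survival.

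The 3 cytokine genes lie in a row on the plus strand of chromosome 1, and the stretches before their starts are shown because IL24 alone of the 3 reached a high transcript level. All 7 members were found among RefSeq promoters of GRCh38.p14, with 10 windows in all. Each line gives the 250 bases before a RefSeq start, for IL19 and IL20 the start nearest to IL24, 5′ to 3′ on the plus strand. Capitals mark matches to any of the 8 motifs searched on both strands.

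IL24, chr1:206897193-206897442: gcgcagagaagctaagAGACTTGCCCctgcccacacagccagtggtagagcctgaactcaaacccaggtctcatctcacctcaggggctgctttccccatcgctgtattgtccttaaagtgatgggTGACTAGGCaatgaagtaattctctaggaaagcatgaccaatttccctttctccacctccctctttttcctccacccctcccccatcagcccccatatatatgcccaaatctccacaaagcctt
IL20, chr1:206865373-206865622: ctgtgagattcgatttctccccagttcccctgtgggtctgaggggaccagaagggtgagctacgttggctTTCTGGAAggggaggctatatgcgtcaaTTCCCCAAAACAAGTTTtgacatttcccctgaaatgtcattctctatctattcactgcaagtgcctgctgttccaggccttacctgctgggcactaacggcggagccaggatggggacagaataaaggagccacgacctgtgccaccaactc
IL19, chr1:206834099-206834348: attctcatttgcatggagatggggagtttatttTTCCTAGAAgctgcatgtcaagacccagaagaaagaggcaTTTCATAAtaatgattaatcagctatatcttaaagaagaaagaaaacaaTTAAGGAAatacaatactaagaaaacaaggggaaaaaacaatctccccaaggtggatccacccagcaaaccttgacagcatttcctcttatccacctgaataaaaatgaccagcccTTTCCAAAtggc

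The motifs were the AP-1 site TGANTCA, the cAMP response element TGACGTCA, the antioxidant response element core TGACNNNGC, the STAT site TTCNNNGAA, the C/EBP site TTNCNNAA, the TATA box TATAAA, and the NF-kB and p53 consensus elements by name. The search covered 300 bases, 250 before and 50 after each start. In the IL24 window the element core that NRF2 binds matched once as TGACTAGGC, beginning 124 bases before the start. The p53 element, of which a full site has a pair, matched once as AGACTTGCCC, beginning 234 bases before the start. A C/EBP match lay 20 bases after the start, outside the stretch printed. The AP-1 site and the STAT site had no match in this window. Of 35116 RefSeq promoter windows of the same length, 13.3% held the antioxidant core, 6.63% the p53 element, 36.8% a C/EBP match, 7.71% an AP-1 site, 7.66% a STAT site, 11.5% a TATA box, 5.91% an NF-kB element and 1.85% a cAMP response element. In the IL20 window shown, a p53 element overlapped a C/EBP match, with another C/EBP match before them, and the IL19 window shown held a STAT match and C/EBP matches. A further IL19 window, from an upstream RefSeq start, held the AP-1 letters TGACTCA. A further IL20 window, also from an upstream start, held a TATA box, beginning 32 bases before that start, and a C/EBP match. Of the receptor chain genes, IL10RB held an antioxidant core, a STAT match and a p53 element, IL22RA1 an AP-1, an NF-kB and a C/EBP match, IL20RA a TATA box in 1 of its windows, and IL20RB no match. These matches are letters in a window and say nothing about binding in these cells.

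IL24 (ENSG00000162892, chromosome 1, 206897443 to 206904139, plus strand, GRCh38) stood far above every other member after treatment. It had 23, 29 and 32 counts in the control libraries and 3447, 3066 and 3405 in the treated ones. All treated libraries lay far above all controls, and the replicates within each group lay close together. As CPM, counts brought to a common library size with edgeR's TMM factors, this was 1.60 ± 0.24 in controls and 159.2 ± 7.70 in treated cells (SD, n = 3), a log2 difference of 6.63 (SE 0.098), or 99.0-fold. Among 13056 tested protein-coding genes, 35 had a larger fitted log2 difference. The 35 include genes with 0 counts in all controls, such as HES2 (8.48), whose fitted difference depends on the small prior count that edgeR adds. Since each library holds RNA pooled over cells, more cells with the transcript and more transcript per cell cannot be told apart. No exon base of IL24 was shared with another gene of the table.

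The sister cytokine genes stayed near the limit of detection. IL19 (ENSG00000142224, chromosome 1, 206798870 to 206842981) had 7, 1 and 2 counts in controls and 8, 8 and 11 in treated libraries. Control replicate 1 alone held most of the control counts and reached into the treated range in CPM, so the groups overlapped. The ratio of summed counts, corrected for library size, was 2.27 with an exact 95% binomial interval of 1.07 to 5.26, which covers counting error only. IL20 (ENSG00000162891, chromosome 1, 206865354 to 206869223) had 0, 0 and 1 counts in controls and 5, 2 and 2 in treated libraries. The groups did not overlap, but the ratio of 7.58 had a counting interval of 1.05 to 332. Among 595 protein-coding genes that also had 1 count in the controls together, 45.4% reached the 9 treated counts of IL20. IL24 supplied 76.7% to 96.7% of the counts of the 3 cytokine genes in the control libraries and 99.6% to 99.7% in the treated libraries.

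**Figure D1:**
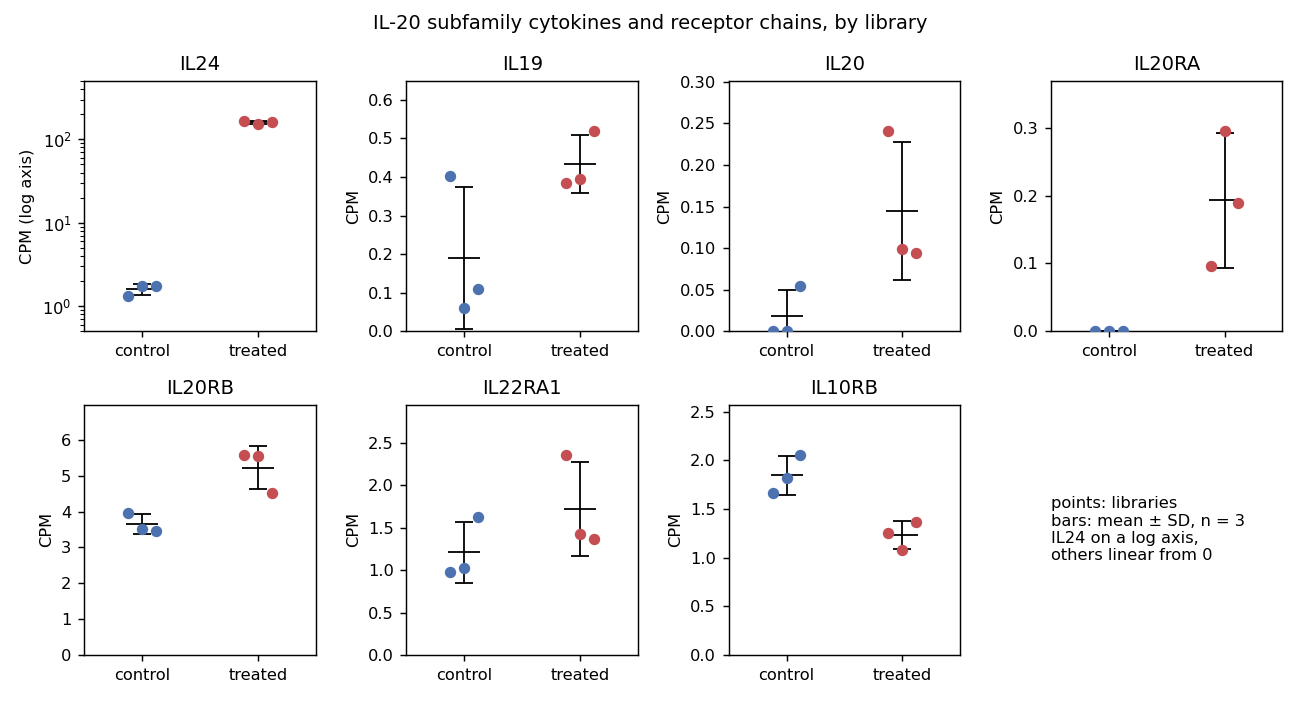
CPM of each member (vertical axes; IL24 on a log axis, the others linear from 0) in the 3 control and 3 treated libraries; points are libraries and bars the mean ± SD. IL24 lies at 1.32 to 1.75 CPM in controls and 151 to 166 CPM in treated libraries, IL19 and IL22RA1 overlap between groups, and IL10RB lies lower in the treated libraries.

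Of the receptor chains, IL20RB, the chain common to both IL-24 receptors, had the most counts. IL20RB (ENSG00000174564, chromosome 3, 136946230 to 137011085) had 69, 58 and 64 counts in controls and 116, 113 and 96 in treated libraries. Every treated library lay above every control, with treated replicate 3 the lowest of its group. Its level was 3.64 ± 0.28 CPM in controls and 5.23 ± 0.60 CPM in treated cells, a log2 difference of 0.52 (SE 0.18), or 1.43-fold. Of tested protein-coding genes, 20.1% had a log2 difference at least as large. Of the exon bases of IL20RB, 4.16% lay in exons of NCK1 or of an antisense gene, IL20RB-AS1, which had 0 counts throughout.

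IL20RA (ENSG00000016402, chromosome 6, 136999971 to 137045180, minus strand) is the other chain of the receptor that all 3 cytokines can use. It had 0 counts in each control and 2, 6 and 4 in the treated libraries. Against a floor of 3 counts over the control group, its 12 treated counts were 3.37-fold higher after correction for library size. That value is not a lower limit, as it leaves out the counting error of the 12 treated counts. Of 4379 protein-coding genes with 0 counts in the controls together, 519 (11.9%) had 12 or more in the treated libraries, so a gain of this size from 0 was shared by many genes.

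IL22RA1 (ENSG00000142677, chromosome 1, 24119771 to 24143121, minus strand), the alternative partner of IL20RB, had 17, 17 and 30 counts in controls and 49, 29 and 29 in treated libraries. Control replicate 3 and treated replicate 1 stood above the rest of their groups, and the groups overlapped. The level was 1.21 ± 0.36 CPM in controls and 1.72 ± 0.56 CPM in treated cells, with a log2 difference of 0.50 (SE 0.32). Without treated replicate 1 that difference was 0.20, and without control replicate 3 it was 0.77.

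IL10RB (ENSG00000243646, chromosome 21, 33266358 to 33310187) was the single member with lower values after treatment. It had 29, 30 and 38 counts in controls and 26, 22 and 29 in treated libraries, which as CPM did not overlap (1.85 ± 0.20 in controls, 1.23 ± 0.14 in treated cells). The log2 difference was -0.58 (SE 0.30), or 1.49-fold lower. The counts of IL10RB need care. A read-through gene, AP000295.1, covers 1732 exon bases of IL10RB, which are 38.1% of all its exon bases but 88.2% of the coding transcript IL10RB-201, with 926 of its 975 coding bases. AP000295.1 had 0 counts in every library, as did 1782 of the 1840 genes whose exon bases all lie in exons of other genes (96.8%, against 43.5% of genes that share no exon base). The IL10RB values thus describe mainly the 2816 exon bases outside the read-through gene, and its level in CPM may leave out most of its reads.

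Across the 7 members, 4 had all treated libraries above all controls (IL24, IL20, IL20RA and IL20RB), 1 had them below (IL10RB) and 2 overlapped. Among the 36005 genes with at least 1 count, 23.3% had treated libraries all higher and 15.1% all lower. Of the 15575 genes that passed the filter on low counts, 66.7% had groups that did not overlap, in either direction. Since the members were chosen with this contrast known, nothing is read from these shares. Only 4 members, IL24, IL20RB, IL22RA1 and IL10RB, passed the filter on low counts.

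Levels of different genes were compared per length, as CPM divided by the exon length in kilobases (RPKM). In controls the order was IL20RB (1.47 ± 0.11 RPKM), IL24 (0.810 ± 0.12), IL22RA1 (0.432 ± 0.13), IL10RB (0.406 ± 0.043), IL19 (0.0735 ± 0.071), IL20 (0.0115 ± 0.020) and IL20RA (0), n = 3 each. IL22RA1 and IL10RB overlapped between libraries, as did IL19 with IL20 and IL20 with IL20RA. In treated cells IL24 moved to the top at 80.4 ± 3.89 RPKM, followed by IL20RB (2.11 ± 0.24), IL22RA1 (0.614 ± 0.20), IL10RB (0.271 ± 0.032), IL19 (0.167 ± 0.029), IL20 (0.0923 ± 0.053) and IL20RA (0.0409 ± 0.021). There IL19 overlapped with IL20 and IL20 with IL20RA, and the other neighbours did not overlap. Counted per unshared exon base, a choice made after seeing the data, IL10RB stood at 0.655 ± 0.070 in controls, above the mean of IL22RA1, and at 0.438 ± 0.051 in treated cells, below it. Among 19850 protein-coding genes, 10660 had a higher mean RPKM than IL24 in controls and 417 in treated cells.

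**Figure D2:**
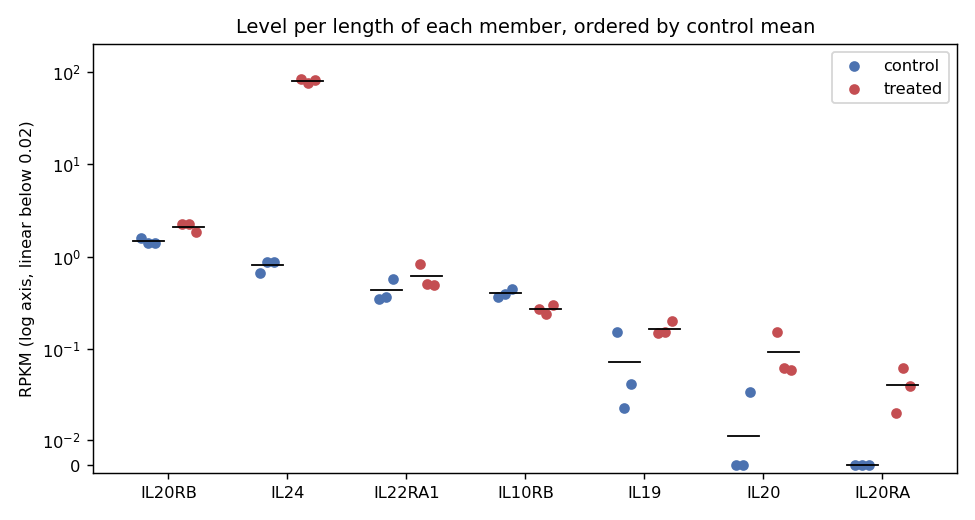
RPKM (log vertical axis, linear below 0.02) of the 7 members in control and treated libraries, ordered by the control mean; points are libraries and lines the group means, n = 3. IL24 goes from below IL20RB in controls to far above every other member in treated cells, and IL20RA is at 0 in all controls.

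Set against its receptor chains, IL24 went from below IL20RB to far above it, and was above IL22RA1 in both groups. The RPKM of IL24 over that of IL20RB was 0.417 to 0.625 in the control libraries and 33.9 to 44.3 in the treated libraries. Over IL22RA1 it was 1.51 to 2.41 in controls and 99.5 to 166 in treated libraries. For the receptor of IL20RA and IL20RB, the scarcer chain was IL20RA in all libraries, at 0 RPKM in controls and 0.0204 to 0.0624 in treated cells. For the receptor of IL22RA1 and IL20RB, the scarcer chain was IL22RA1 in all libraries, at 0.349 to 0.580 RPKM in controls and 0.489 to 0.844 in treated cells. These are transcript levels, and the proteins were not measured.

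Markers of known IL-24 sources were read in the same libraries. The summed level of 8 immune markers was 2.22 to 3.14 CPM in controls and 5.64 to 6.45 CPM in treated cells. CD3E, LYZ, FCGR3A and NKG7 had 0 counts in all controls. PTPRC, the leukocyte antigen CD45, went from 58 to 238 counts over the group and LYZ, lysozyme, from 0 to 40, while CD3E of T cells had 0, 0 and 1 and NKG7 of killer cells 0, 0 and 2 counts in the treated libraries. The sum of 8 keratinocyte markers was 40.8 to 43.2 CPM in controls and 37.6 to 40.9 CPM in treated cells. Most of it was KRT10, which was lower in treated cells, and the sum hides members that were higher. KRT14 had 23, 27 and 27 counts in controls and 67, 97 and 95 in treated libraries, and TP63, the p63 factor of basal epithelium, had 0 in each control and 29, 32 and 31 in treated libraries. KRT5, KRT1, KRT6A, DSG3 and IVL were at 0 in all controls and had 0 to 12 counts in any treated library. Small gains from 0 were common: of 4379 protein-coding genes at 0 in the controls together, 2713 had treated counts and 519 had 12 or more. The limit of 12 is the treated count of IL20RA. It lies below the treated counts of LYZ (40) and TP63 (92), for which no such share was computed. The part of these immune and keratinocyte genes in the IL24 difference was not tested.

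Within 250 kb of IL24 on chromosome 1, no other tested gene had a log2 change above 1.90, against the 6.63 of IL24. This window held 11 protein-coding genes other than the members, of which 6 passed the filter on low counts. Calls were made at a Benjamini-Hochberg adjusted p below 0.05 in the quasi-likelihood test of edgeR. It called 63.5% of 15575 tested genes, 32.3% higher and 31.2% lower, so 50.8% of calls were higher, or 63.8% with total counts only. Of the 6 neighbours, 4 were higher, 1 lower and 1 not called. FCMR, which encodes a receptor for immunoglobulin M, faces IL24 from the opposite strand, with 246 bases between the ends of both genes. It had 67, 48 and 50 counts in controls and 200, 204 and 210 in treated libraries, with no overlap, and rose by a log2 change of 1.64 (SE 0.16, edgeR adjusted p = 3.51e-14). The libraries carry no strand information, and the part of IL24 reads in the FCMR counts was not tested. DYRK3, a protein kinase gene at the far end of the window, rose from 22.6 ± 0.100 to 84.1 ± 2.65 CPM (log2 change 1.90, SE 0.067, edgeR adjusted p = 1.70e-34).

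PFKFB2, whose enzyme makes an activator of glycolysis, rose by 0.94 (SE 0.12) and YOD1, a deubiquitinase gene, by 0.37 (SE 0.081) on the log2 scale. MAPKAPK2, the kinase downstream of p38, fell from 229.9 ± 8.36 to 190.2 ± 11.7 CPM (log2 change -0.27, SE 0.049). C4BPB was not called (log2 change -0.50, SE 0.43, edgeR adjusted p = 0.307). The 5 coding neighbours that were not tested, IL10, PIGR, FCAMR, C1orf116 and C4BPA, had 0 to 11 counts in controls together and 3 to 24 in treated libraries together. IL10 shared 60.3% of its exon bases with another gene of the table, so its low count may leave out reads.

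**Figure D3:**
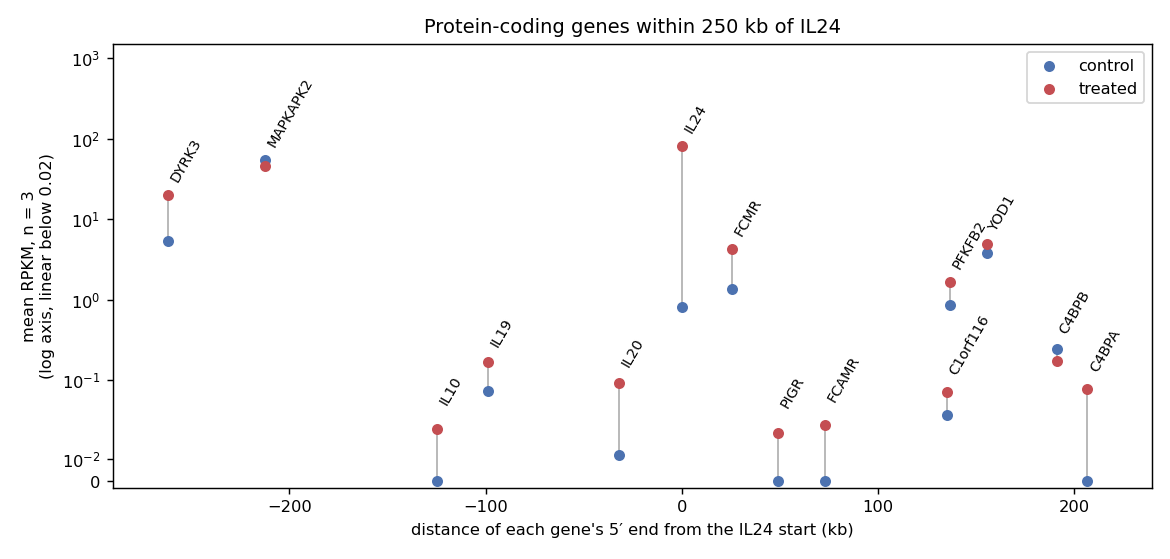
Mean RPKM (log vertical axis, linear below 0.02, n = 3) of protein-coding genes with any base within 250 kb of IL24, in control and treated cells, against the distance in kb of each gene's 5′ end from the IL24 start. IL24 spans 0.810 to 80.4 RPKM, the adjacent IL20 and FCMR lie far below it in treated cells, and several neighbours are near 0.

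Other cytokines and receptors of the interleukin-10 family were close to silent. Of 10 genes, IFNLR1, the interferon lambda receptor chain, was the only one to pass the filter, and it was not called (0.579 ± 0.34 to 0.785 ± 0.28 CPM, edgeR adjusted p = 0.424). The interferon lambda genes IFNL1, IFNL2, IFNL3 and IFNL4 had 0 counts in all libraries. IL22RA2, which encodes a soluble decoy receptor for interleukin-22, had 0 counts in controls and 2, 0 and 5 in the treated libraries. IL26 had 16 counts in controls and 20 in treated libraries.

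The kinases and STAT proteins that act below the receptors moved both ways. All 11 genes were tested, of which 4 were higher and 3 lower, and the remaining 4 were not called. The median log2 change was -0.01 beside 0.02 for all tested genes. Of all tested genes, 32.3% were called higher and 31.2% lower, so these counts are not read as a result about this list. STAT3, the main transducer of these receptors, rose from 227.5 ± 4.02 to 320.9 ± 17.3 CPM (log2 change 0.50, SE 0.048, edgeR adjusted p = 3.67e-14). STAT2, a transducer of interferon signals, rose by 0.79, and STAT4 by 1.61 on the log2 scale from 2.49 ± 0.26 CPM. JAK1, the kinase that the IL22RA1 chain binds, fell from 331 ± 9.90 to 220 ± 6.27 CPM (log2 change -0.59, SE 0.047). STAT5A (-0.90) and STAT5B (-0.72 on the log2 scale) also fell. JAK2, JAK3, TYK2 and STAT6 were not called, and STAT6 was called higher with total counts only (0.13, edgeR adjusted p = 0.0201).

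Among 15 inhibitors of JAK-STAT signalling, 14 were tested, and 3 were higher, 7 lower and 4 not called (median log2 change -0.14). The shares over all tested genes were 32.3% higher and 31.2% lower. SOCS3, a feedback inhibitor that STAT3 induces, fell from 59.4 ± 3.78 to 33.8 ± 1.76 CPM (log2 change -0.81, SE 0.068, edgeR adjusted p = 1.87e-16). SOCS4 (0.81), SOCS7 (0.65) and SOCS2 (0.57 on the log2 scale) rose. With libraries scaled by total counts only, 4 of the inhibitors were lower in place of 7, since PIAS2, PIAS3 and PTPN1 were no longer called. PIAS2 also lost its call without treated replicate 2 (edgeR adjusted p = 0.0591) and PIAS3 without treated replicate 1 (edgeR adjusted p = 0.144) and with upper-quartile factors (edgeR adjusted p = 0.0832), which left 6 lower genes in each case.

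Genes known as STAT3 targets split. Of 15, all tested, 8 rose and 7 fell (median log2 change 0.17). Calls were common among all tested genes too, with 32.3% higher and 31.2% lower. FOS had 35, 37 and 39 counts in controls and 316, 239 and 255 in treated libraries (log2 change 2.61), and CCND1, cyclin D1, by 1.53 and BCL2L1, a survival gene, by 1.42 on the log2 scale. BIRC5, which encodes survivin (-1.29), PIM1, a kinase gene (-1.22), MYC (-0.96), SOCS3 (-0.81), HIF1A (-0.80), BCL3 (-0.71) and CEBPD (-0.39 on the log2 scale) fell. Other genes' exons cover 43.0% of BCL2L1.

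**Figure D4:**
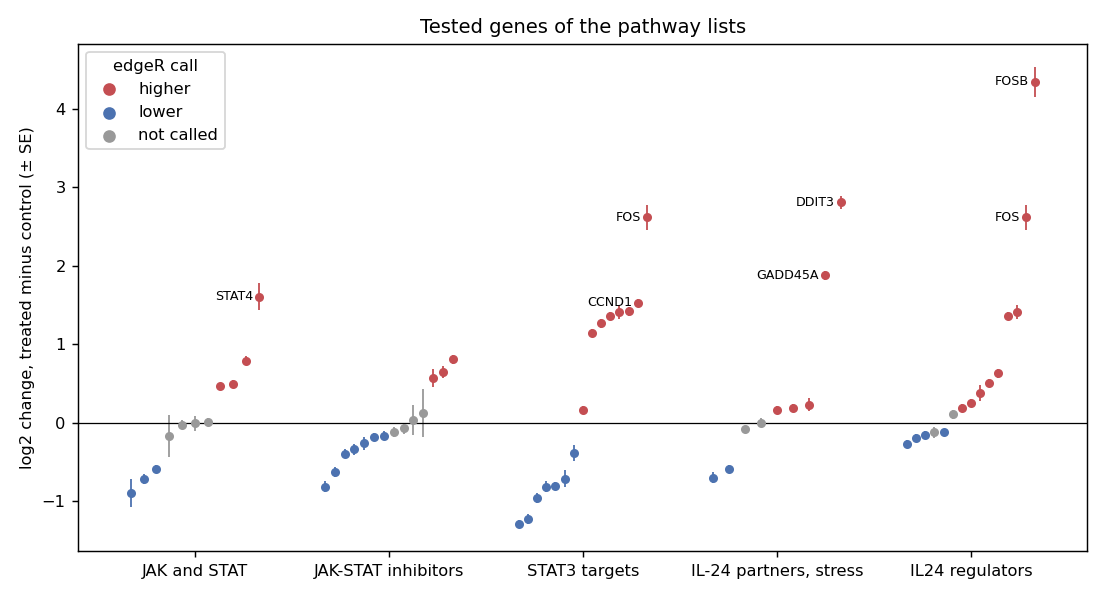
Log2 change, treated minus control, with SE, of every tested gene in the 5 pathway lists with more than 1 tested gene, coloured by the edgeR call. FOSB (4.34), DDIT3 (2.81) and FOS (2.61) lie highest, and the JAK and STAT genes and STAT3 targets lie on both sides of 0.

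Genes reported to act with IL-24 inside cells include the chaperone HSPA5 and the kinase EIF2AK2, with stress and GADD family genes. Of 10, 9 were tested, of which 5 were higher, 2 lower and 2 not called (median log2 change 0.17). EIF2AK3, among the 5, lost its call without control replicate 1 (edgeR adjusted p = 0.0600). Over all tested genes, 32.3% were higher and 31.2% lower. DDIT3, the stress transcription factor CHOP, rose from 9.71 ± 0.80 to 67.9 ± 4.63 CPM (log2 change 2.81, SE 0.084). GADD45A is a growth arrest gene that went from 80.7 ± 0.92 to 296 ± 22.0 CPM (log2 change 1.88, SE 0.053). HSPA5 (-0.59) and GADD45B (-0.70 on the log2 scale) fell. EIF2AK2 was not called (0.00, edgeR adjusted p = 0.956), but was called higher at 0.13 with total counts only (edgeR adjusted p = 0.0228). GADD45G was not tested and had 0 counts in controls and 32 in treated libraries together. Other genes' exons cover 39.6% of DDIT3.

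Of 15 genes reported to control IL24 transcription or transcript stability, all tested, 9 rose, 4 fell and 2 were not called (median log2 change 0.25). Beside this, 32.3% of all tested genes were called higher and 31.2% lower. The AP-1 subunit gene FOSB had 11, 12 and 17 counts in controls and 339, 276 and 356 in treated libraries, with no overlap (log2 change 4.34, SE 0.19, edgeR adjusted p = 1.16e-29). FOS (2.61), JUNB (1.41) and the C/EBP factor gene CEBPB (1.36) rose, and JUN rose by 0.19 on the log2 scale. FOS, JUNB and CEBPB also stand among the STAT3 targets. The 4 genes that fell moved little: MAPKAPK2 by -0.27, FOSL2 by -0.19, MAPK14, which encodes p38, by -0.15, and ELAVL1 by -0.12 on the log2 scale. With total counts only, FOSL2, MAPK14 and ELAVL1 were no longer called and ELAVL1 stood at 0.01, so that MAPKAPK2 was the 1 gene of the list still called lower. Upper-quartile factors also ended the calls of MAPK14 and ELAVL1 (edgeR adjusted p = 0.0911 and 0.217). MAPK14 further lost its call without control replicate 2 (edgeR adjusted p = 0.0740) and ELAVL1 without treated replicate 1 or 3 (edgeR adjusted p = 0.0618 and 0.0911). The NF-kB subunit gene RELA was not called (0.11, edgeR adjusted p = 0.0762) but was called higher under 4 alternatives, with log2 changes of 0.12 to 0.24: upper-quartile factors, total counts only, a minimum of 1 CPM in 3 libraries, and without treated replicate 1 (edgeR adjusted p = 0.0296).

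The genes with the pattern most like IL24 were found by the root-mean-square difference of mean-centred log2 CPM over the 6 libraries, among 13055 other tested protein-coding genes. The nearest were HES2 (0.18), LRP1B (0.20), LHX3 (0.26), APOBEC3H (0.26) and GDF15 (0.33). The former 4 had 0 counts in all controls and 1.90 to 2.33 CPM in treated cells, so their likeness rests on the prior count added before the log. GDF15, a stress-induced secreted factor, was counted in both groups, at 4.6 ± 1.00 CPM in controls and 341 ± 4.80 CPM in treated cells. Among 12625 genes with at least 20 counts in the controls together, a limit set after seeing the data, GDF15 was followed by NTN1, which encodes netrin-1 (0.62), ESM1, an endothelial proteoglycan gene (0.74), TNFRSF10C (0.79) and AKR1B10 (0.81). All these genes share the 6 libraries and their group labels with IL24, so the values describe the size of the difference and its spread. Other genes' exons cover 39.3% of TNFRSF10C.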

How the data were processed

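The authors deposited 1 table of raw counts per gene, with exon coordinates and gene length, per the file headers. Libraries were unstranded and poly(A)-selected, per the labels' protocols. The submitters' processing notes name the hg38 and GRCh38 builds, the aligner STAR, and featureCounts, Subread and SAMtools. Their versions, the annotation and how shared exons were counted: not given in the sources used here. Symbols and gene types came from GENCODE 29 (58179 of 58299 genes matched). Depth was 17150259 to 20193957 counts per library. Replicate pairs differed by more than sampling noise (chi-square over degrees of freedom 2.84 to 3.77), so each library counted once.

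Low counts were removed by group with edgeR's filterByExpr at a minimum count of 10, and 15575 genes stayed. Libraries were scaled by TMM. The quasi-likelihood functions glmQLFit and glmQLFTest of edgeR 4.0.16 ran under R 4.3.3, and p-values were adjusted by Benjamini and Hochberg's method over all of these genes, with a threshold of 0.05. The fit was tested on simulated data. SEs are the log2 change over the square root of the F statistic, with edgeR's prior count of 0.125. For likeness to IL24, log2 CPM used a prior count of 0.5. RPKM values were computed from the counts and the table's lengths. Python 3.11.15 with scipy 1.17.1 gave the exact binomial intervals. Intervals cover counting error only, and the floor stands in for control counts of 0 without covering the error of the treated counts.

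The members and lists were chosen with earlier results of these data known. Named genes were all members, the 3 called genes with the largest change in each list and called genes that moved against most of their list, coding neighbours within 250 kb that passed the filter, genes sharing exons with a member, and the 5 genes most like IL24. Some list genes are counted but not reported here by name. Values of other genes in the text were known before they were picked. The alternatives tried were scaling by RLE, by upper quartile or by totals, other filters, DESeq2 1.42.0, limma-voom (limma 3.58.1), a replicate block, each library left out, a stricter threshold and, chosen after seeing the data, IL10RB per unshared exon base.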

Additional observations from a re-analysis of the deposited data

How the results depend on the processing

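The log2 difference of IL24 lay between 6.50 and 6.76 over all alternatives, and between 6.50 and 6.68 when each library was left out in turn. The differences of IL20RB (0.47 to 0.65), IL22RA1 (0.20 to 0.77) and IL10RB (-0.66 to -0.45) kept their sign, and the order of the 7 members per length was the same with TPM and with total counts only. Counts of called genes stayed within 1.5 times of their main value except for lower genes among the JAK-STAT inhibitors with total counts only (4 in place of 7), and for lower genes among the regulators of IL24 with upper-quartile factors (2 in place of 4) and with total counts only (1). With total counts only, the median over all tested genes was 0.15 on the log2 scale in place of 0.02, and higher genes made up 63.8% of all calls in place of 50.8%. Without a filter the median was 0.51 over 36005 genes. Changes of list genes near 0 are to be read against these shifts.

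The replicate numbers gave no sign of pairing: deviations of same-numbered libraries from their group means correlated at -0.02, -0.01 and -0.01. With the replicate number as a block, the log2 difference of IL24 was 6.63, and 4892 genes were higher and 4761 lower, against 5028 and 4865 without it. Depth limits IL19, IL20 and IL20RA, which had 0 to 11 counts in any library.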
